A study of Mus musculus with 6 samples.

Results

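Hspb1, Hspb6, Hspb8 and Cryab encode small heat shock proteins. The 4 genes were taken by name from the 32285 genes measured in sections of the mouse brain. They were chosen with earlier results of these data known, so counts of called members beside shares of all genes are descriptions. The study applied Visium, an array of barcoded capture spots laid under a frozen tissue section, to coronal sections cut near the same level from 6 brains of male C57BL/6J mice. The young group was aged 6 months, the middle group 18 months and the old group 21 months, with 2 sections each. The labels record 2 males of each age and name no transgene, deletion or treatment in any group, and the 6 sections are treated here as 6 animals. Slide 2 held only middle 2 and old 2, while the other 4 sections, both young among them, were on slide 1, which partly confounds slide with age.

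Small heat shock proteins share a conserved alpha-crystallin domain, assemble into oligomers that bind partly unfolded proteins without using ATP, and hand them to the Hsp70 chaperones for refolding or removal. Hspb1 (Hsp27) is induced by the heat shock factor Hsf1 and also binds the actin and intermediate filament cytoskeleton. Cryab (alpha-B-crystallin) is abundant in oligodendrocytes and astrocytes, Hspb6 (Hsp20) is known from smooth and cardiac muscle, and Hspb8 (Hsp22) acts with the co-chaperone Bag3 in the autophagy of misfolded proteins.

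The heat shock element to which Hsf1 binds is built of inverted units of GAA, and its pair GAANNTTC, which reads the same on both strands, was searched in the 250 bases upstream of each start in RefSeq's promoters (build GRCm38.p6). The sequences of the 3 members that RefSeq's promoters held are shown with that of Hspa1a, the inducible Hsp70. Below, Hspb1 and Hspa1a were lower with age, Hspb6 was higher in old white matter, and Hspb8 was called in no comparison. Capitals mark a match.
Hspb1, chr5:135887669-135887918, plus strand: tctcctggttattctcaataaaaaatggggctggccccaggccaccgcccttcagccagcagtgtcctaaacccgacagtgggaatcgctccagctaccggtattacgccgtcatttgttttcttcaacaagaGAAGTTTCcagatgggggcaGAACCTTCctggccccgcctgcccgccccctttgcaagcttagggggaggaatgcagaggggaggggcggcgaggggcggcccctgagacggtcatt
Hspb6, chr7:30553051-30553300, plus strand: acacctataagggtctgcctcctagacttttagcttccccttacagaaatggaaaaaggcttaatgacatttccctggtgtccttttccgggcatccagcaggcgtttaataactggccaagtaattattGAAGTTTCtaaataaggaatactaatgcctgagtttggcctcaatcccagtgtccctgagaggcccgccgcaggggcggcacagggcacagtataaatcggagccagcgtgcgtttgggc
Hspb8, chr5:116422865-116423114, minus strand: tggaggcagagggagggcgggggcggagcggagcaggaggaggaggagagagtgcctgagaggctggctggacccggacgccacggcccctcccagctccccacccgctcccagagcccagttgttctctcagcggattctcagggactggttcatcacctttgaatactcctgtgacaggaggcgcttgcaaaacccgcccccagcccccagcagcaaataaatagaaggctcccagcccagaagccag
Hspa1a, chr17:34972157-34972406, minus strand: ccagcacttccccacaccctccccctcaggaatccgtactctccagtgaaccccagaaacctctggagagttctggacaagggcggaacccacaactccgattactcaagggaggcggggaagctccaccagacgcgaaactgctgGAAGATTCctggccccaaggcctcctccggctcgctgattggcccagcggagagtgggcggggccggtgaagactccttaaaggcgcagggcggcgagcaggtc

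Counted back from the start site, the matches of Hspb1 began 117 and 97 bases upstream, that of Hspb6 120 bases upstream and that of Hspa1a 104 bases upstream. Hspb6 has a second listed start, whose window (chr7:30552290-30552539) held no match, and the upstream window of Hspb8 held none, although a match began at base 3 of the gene itself, just past the window shown. Hspb3, another gene of the family, held a match that began 224 bases upstream. Over all 32851 windows of this length, 2199 (6.69%) held a match. The other order of the units, TTCNNGAA, was also searched and was in none of the windows shown, while 12.8% of all windows held either pair. Longer elements of 3 units were in none of the windows shown. The letters are a description and do not show binding, and their part in the changes below was not tested. In the mouse annotation GENCODE M21 (GRCm38) Hspb1 lies at chr5:135887919-135889563 on the plus strand and Hspb8 at chr5:116408491-116422864 on the minus strand, each with no overlapping gene. Hspb6 (chr7:30552178-30555443, plus strand) overlaps Proser3 and Lin37 on the minus strand, and Cryab (chr9:50751325-50756636, plus strand) overlaps the start of Hspb2, another small heat shock gene that is read from the minus strand. The use of strand in counting is not given in the sources used here.

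Levels are counts per 1000000 UMIs of the same spots (CPM), where a UMI, a unique molecular identifier, marks 1 captured transcript molecule. The 6 sections kept 2573 to 2973 spots and 60938938 to 77557934 UMIs. The median depth of a spot was highest in young 1 (30093 UMIs) and lowest in old 2 (20370 UMIs). A spot can hold several cells, and spots were grouped by expression, without the 4 genes, into 25 clusters. Of these, 16 matched marker genes of 8 brain regions and 9, with 3469 of 16741 spots, stayed unnamed. Young 1 had a regional makeup of its own, with 38 spots of the hippocampal formation against 92 to 174 in the other sections, 283 of thalamus against 375 to 507, and 6 of an unnamed cluster led by Ddn and Adcy1 against 65 to 105. In the white matter spots all 10 oligodendrocyte markers were measured, with a summed level of 27114 to 39739 CPM. UMIs of a group of spots were summed per section and compared with edgeR's quasi-likelihood test, with p-values adjusted over all genes by the Benjamini-Hochberg method. A change was called at an adjusted p under 0.05.

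Each gene had its own map (the plot of levels by region). Hspb1 was highest in the meninges, the membranes over the brain, with a median of 115 CPM and a range over the 6 sections of 89.8 to 214. The choroid plexus and ventricle spots, where cerebrospinal fluid is made, followed at 68.4 (54.3 to 172), and the meninges lay above them in 6 of 6 sections. Thalamus (33.2) and white matter (30.4) came next, and the hippocampal formation was lowest (9.17). The ranges of all neighbours in this order overlapped. Outside those 2 regions the highest cluster median of Hspb1 belonged to an unnamed cluster of 104 spots led by the cholinergic genes Slc5a7 and Ache, at a median of 60.4.

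Hspb8 was highest in the same 2 places, with medians of 69.0 in choroid plexus and ventricle and 67.1 in meninges, whose ranges overlapped. White matter was next at 19.5 (17.5 to 26.3), below the lowest meningeal section and above every section of the hypothalamus (median 8.83). Thalamus was lowest at 4.59.

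Hspb6 was highest in choroid plexus and ventricle, at 25.6 (19.4 to 29.6), above every section of every other named region. White matter (7.40), hypothalamus (7.21) and meninges (6.12) followed with overlapping ranges, and the hippocampal formation was lowest at 2.60. An unnamed cluster of 204 spots led by Necab2, Gng8 and Ttr reached a median of 15.7. Ttr was also the first leading gene of the choroid plexus and ventricle spots.

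Cryab was highest in white matter, with a median of 1619 (1332 to 2111), above choroid plexus and ventricle at 962 (729 to 1234) and both above every other region. Striatum (320), thalamus (303), meninges (269) and isocortex (219) followed, and the hippocampal formation was lowest (151). White matter spots held a median of 38.2% of all Cryab UMIs of a section, beside 8.33% of the UMIs of all genes. The same spots held 16.0% of the Hspb8 UMIs, 12.1% of the Hspb6 UMIs and 11.5% of the Hspb1 UMIs.

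**Figure D1:**
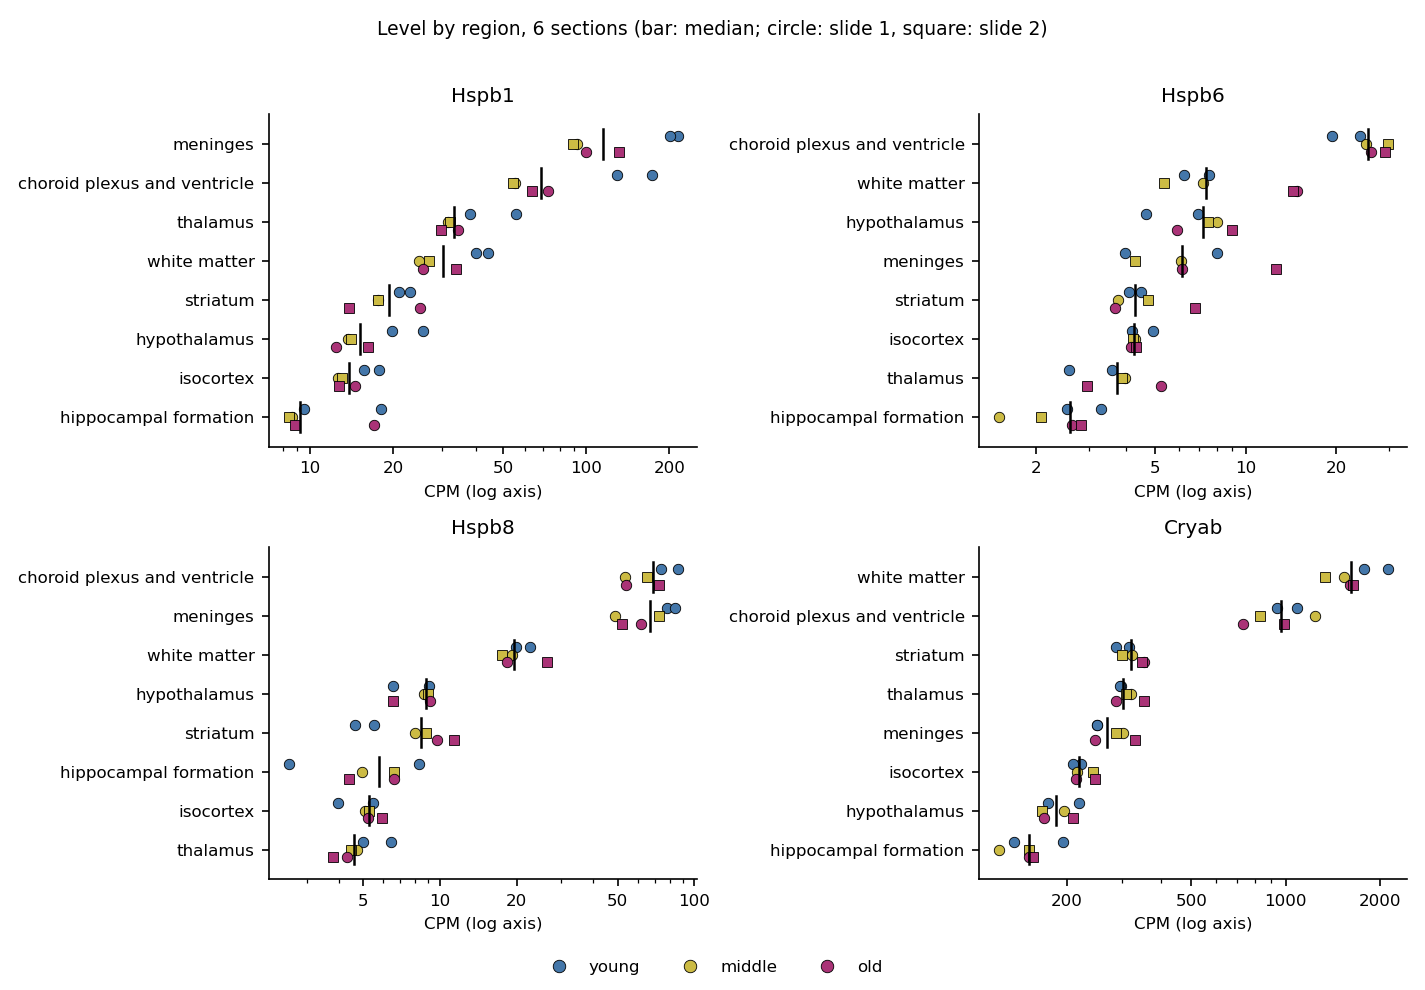
CPM of each gene (log axis) in the 8 named regions, ordered by the median of the 6 sections (bar), with 1 point per section coloured by age. Cryab stands highest in white matter (median 1619), Hspb1 in meninges (115), and Hspb6 (25.6) and Hspb8 (69.0) in choroid plexus and ventricle.

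Hspb1 was the member that fell with age over the whole section. It stood at 28.6 and 30.9 CPM at 6 months, 18.2 and 19.7 at 18 months and 21.7 and 20.8 at 21 months. Both young sections lay above all 4 older ones, and both old sections lay slightly above both middle ones. The fall was 0.54 on the log2 scale (SE 0.06, edgeR adjusted p = 0.0290) from young to old, or 31.1%, and 0.67 (SE 0.06, adjusted p = 0.0134) from young to middle. With equal numbers of spots of each region these became -0.64 (adjusted p = 0.00615) and -0.70 (adjusted p = 0.00263), and without young 1 they were -0.57 (adjusted p = 0.0325) and -0.70 (adjusted p = 0.0151). Hspb1 was the 1 of 4 members called in either comparison, against 29 of 17673 genes tested (0.164%) between old and young and 12 (0.0679%) between middle and young. Between old and middle edgeR called none of the 4 members, nor any gene (0%), with 361 genes at an unadjusted p under 0.05, while DESeq2 also called 0.

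These calls were narrow. Without old 2 the change between old and young was not called (adjusted p = 0.270), and likewise without old 1 (0.102), middle 1 (0.0812) or middle 2 (0.0837), while the log2 fold change stayed between -0.57 and -0.51. Between middle and young the call was lost without middle 1 (0.241) and without middle 2 (0.130). With slide as a block the adjusted p was 0.137 for old and 0.100 for middle against young. Within slide 1 alone, which held both young sections, the log2 difference from their mean was -0.46 for old 1 and -0.71 for middle 1.

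The meninges showed the clearest fall of Hspb1. Its level was 214 and 202 CPM at 6 months, 92.6 and 89.8 at 18 months and 99.4 and 131 at 21 months, from 76 to 294 UMIs a section. Every older section lay well below both young ones. The log2 fold change was -1.21 (SE 0.18, adjusted p = 1.07e-05) from young to middle and -0.88 (SE 0.18, adjusted p = 0.00365) from young to old. Hspb1 was the 1 member called there, against 49 of 10096 genes tested (0.485%) between middle and young and 44 (0.436%) between old and young, and no member was called between old and middle (0.0198% of genes). The fall to middle age was called under every alternative that kept a meningeal region (highest adjusted p 0.00668), but that to old age was lost without old 1 (-0.70, adjusted p = 0.197), without young 1 (0.0901) and with DESeq2 (0.277).

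Markers of the cells around meningeal vessels differed between sections there. The summed fibroblast markers lay between 996 and 1222 CPM. The old (1154 and 1222) lay on either side of the young (1202 and 1183). Both middle sections lay below all of these, the lowest at 996. Smooth muscle markers were 418 and 439 at 6 months, 681 and 682 at 18 months and 604 and 1491 at 21 months. Hspb1 stood at 178 and 170 UMIs per 1000 fibroblast marker UMIs at 6 months, 93.0 and 85.6 at 18 months and 86.2 and 107 at 21 months, so the young stayed apart on this scale. The part of these cells in the fall of Hspb1 was not tested. In sums of spots, fewer cells of a type and less RNA per cell cannot be told apart.

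Choroid plexus and ventricle spots held 129 and 172 CPM of Hspb1 at 6 months, 55.4 and 54.3 at 18 months and 73.0 and 63.7 at 21 months. The young again lay above all others. The fall from young to middle was called (-1.44, SE 0.18, adjusted p = 0.00598), 1 member against 5 of 11833 genes tested (0.0423%). It was not called without young 2 (adjusted p = 0.199) or with slide as a block (0.133). Cell markers differed there as well. Smooth muscle markers summed to 141 and 132 CPM at 6 months, 141 and 99.9 at 18 months and 95.5 and 96.3 at 21 months. Endothelial markers were 774 and 961, 886 and 793, and 778 and 740 in that order. Ependymal markers summed to 1777 and 1708 CPM at 6 months, 1690 and 1334 at 18 months and 1336 and 1160 at 21 months, fibroblast markers to 525 and 759, 402 and 542, and 495 and 567, and microglia markers to 723 and 817, 1434 and 1002, and 1042 and 1263. Per 1000 ependymal marker UMIs Hspb1 was 72.8 and 101 at 6 months, 32.8 and 40.7 at 18 months and 54.6 and 55.0 at 21 months, and per 1000 fibroblast marker UMIs 246 and 227, 138 and 100.2, and 147 and 112. The young stayed highest on both scales, and the part of these cells was not tested. Between old and young the value was -1.10 (SE 0.18, adjusted p = 0.0691), where 4 genes (0.0338%) and no member were called, and it passed the threshold without middle 1 (0.00234) or middle 2 (0.00173).

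In white matter Hspb1 was at 43.9 and 40.0 CPM at 6 months, 24.8 and 26.9 at 18 months and 25.6 and 33.8 at 21 months, again with the young highest. The fall from young to middle was 0.76 on the log2 scale (SE 0.14, adjusted p = 0.0351), the 1 member called among 30 of 13697 genes (0.219%). That call was lost without young 1 (0.110), middle 1 (0.0701) or middle 2 (0.237), and in the 120 spots of each section richest in myelin markers the change was -0.34 (adjusted p = 0.596). From young to old the value was -0.58 (SE 0.14, adjusted p = 0.0689), and in those 120 spots it was -0.03 (adjusted p = 0.984). Between old and young, the difference between the change in white matter and in all other spots was -0.03 (SE 0.15, adjusted p = 0.999), in a test that called 30 of 16887 genes (0.178%) and no member. That value was unsteady: it lay between -0.30 and 0.21 with a section left out and between -0.09 and 0.51 under the other alternatives, so it does not show an equal fall. In all spots outside white matter Hspb1 fell by 0.55 on the log2 scale from young to old (SE 0.07, adjusted p = 0.0435, with 0.131% of genes called) and by 0.67 from young to middle (SE 0.07, adjusted p = 0.0241, with 0.0456% called), the 1 member called in each.

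In the other 5 regions no change of Hspb1 between old and young was called, and each had a value below 0. They were -0.69 in hypothalamus (SE 0.18), -0.61 in thalamus (SE 0.15), -0.33 in isocortex (SE 0.10), -0.27 in striatum (SE 0.22) and -0.17 in the hippocampal formation (SE 0.34), with adjusted p from 0.315 to 0.966. The direction turned in striatum without old 2 (0.13) and in the hippocampal formation without old 2 (0.18) or young 2 (0.56), while with a section left out it stayed below 0 in the other 3. In hypothalamus, thalamus and isocortex both young sections lay above all others, while in striatum old 1 (25.1 CPM) was the highest and in the hippocampal formation the groups overlapped. The shares of genes called there between old and young were 0.0432%, 0.0435%, 0.144%, 0.102% and 0.00809% in the same order, and between middle and young, where no member was called either, 0.036%, 0.0363%, 0.17%, 0.0707% and 0%. When the meninges and choroid plexus and ventricle spots were left out of the sections, an alternative added after the data were seen, the whole-section values were -0.43 (adjusted p = 0.103) for old and -0.54 (adjusted p = 0.0938) for middle against young.

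**Figure D2:**
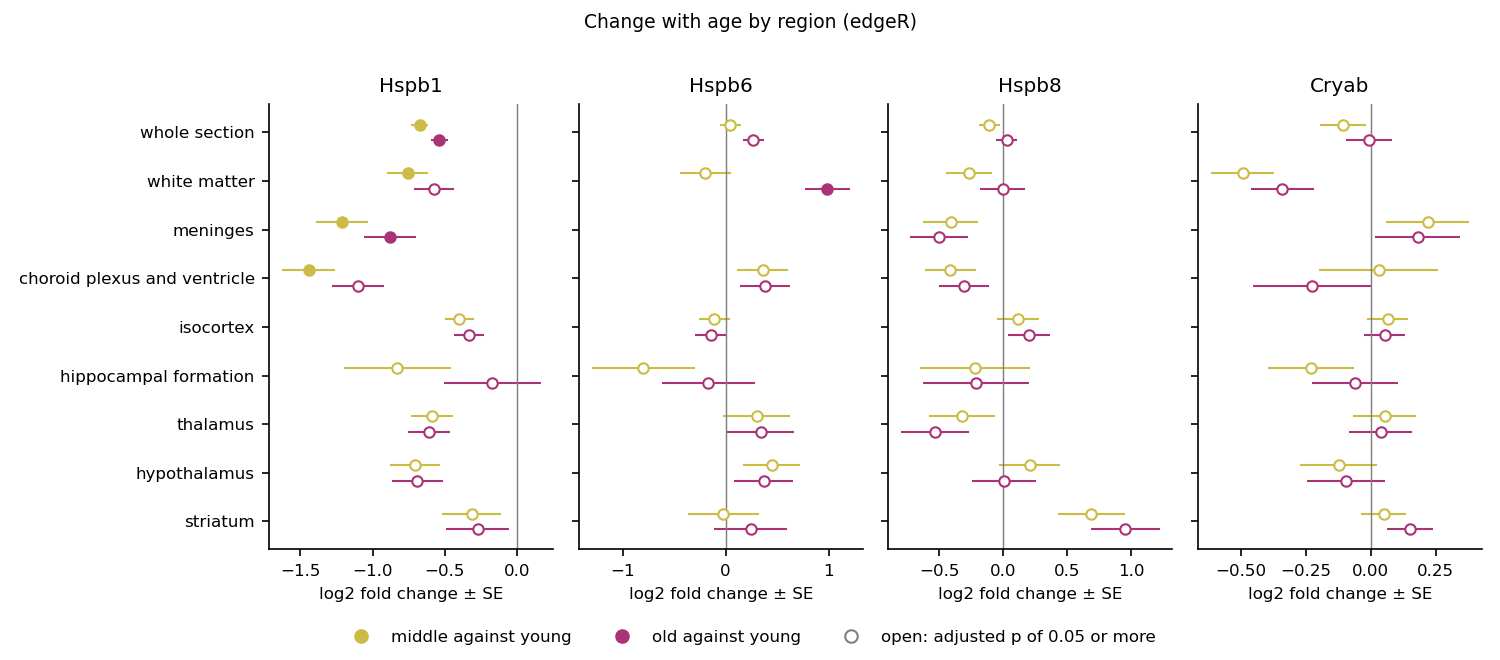
Log2 fold change with its SE (edgeR) against young in whole sections and 8 regions, for middle (yellow) and old (purple). Filled points are called. Hspb1 points lie below 0 in every row, and the only other filled point is Hspb6 in white matter, old against young (0.99).

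Hspb6 was the member that rose, and only in white matter was the rise called. Over the whole section it stood at 5.01 and 5.05 CPM at 6 months, 5.05 and 5.49 at 18 months and 5.91 and 6.66 at 21 months. The old sections were the highest, by a difference that was not called (0.27, SE 0.10, adjusted p = 0.337). In white matter it stood at 7.57 and 6.25 at 6 months, 7.23 and 5.35 at 18 months and 14.8 and 14.3 at 21 months, from 34 to 90 UMIs a section. Both old sections lay well above all 4 others, among which young and middle overlapped.

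The rise from young to old was 0.99 on the log2 scale (SE 0.22, edgeR adjusted p = 0.0449), the 1 member called among 126 of 13697 genes (0.92%). It stood close to the threshold. The adjusted p was 0.0561 without young 1, 0.161 without young 2, 0.202 without old 1, 0.256 without old 2, 0.0870 with slide as a block and 0.345 with DESeq2, and the fold change lay between 0.76 and 1.16 in all alternatives run. Against middle age the value was 1.19 (SE 0.22, adjusted p = 0.117), a comparison with 2 genes (0.0146%) and no member called. Leaving out young 1 or young 2, or fitting the old and middle sections alone (0.0351), brought it past the threshold. Within a slide, old 1 exceeded the mean of the young sections by 1.10 and middle 1 by 1.04, and old 2 exceeded middle 2 by 1.42.

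White matter was made of 3 clusters, which were tested on their own after the data were seen, with no section left out in turn (the plot of white matter clusters). In cluster 2, the richest in myelin genes (Mbp, Mobp and Trf among them) with 1441 spots, Hspb6 was 9.86 and 8.11 CPM at 6 months, 6.59 and 5.38 at 18 months and 19.1 and 18.9 at 21 months. Both old sections stood far above the rest. There old exceeded middle by 1.63 (SE 0.27, adjusted p = 0.00391), 1 member among 57 of 12380 genes called (0.46%), and young by 1.01 (SE 0.25, adjusted p = 0.0261; 2.32% of genes called). In cluster 7, which the astrocyte-rich genes Agt and Sparc also led, the old sections were again the highest, at 10.1 and 10.9 against 2.97 to 7.67 in the others, but the value was not called (1.08, SE 0.44, adjusted p = 0.782). In cluster 16 Hspb6 had too few UMIs to be tested (4 to 18 a section) and stood at 12.7 and 8.60 in the old against 4.39 to 8.13 in the other sections. No other member was called in clusters 7 and 16, where 0.112% and 0.281% of genes were called between old and young, 0.121% and 0.145% between middle and young and 0% and 0.0581% between old and middle.

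Other measures moved in the same white matter spots. Summed microglia markers were 1090 and 1225 CPM at 6 months, 1620 and 1760 at 18 months and 2083 and 2510 at 21 months. Astrocyte markers were 3814 and 3995, 3983 and 4083, and 4406 and 4823 in that order. Markers of smooth muscle, a tissue in which Hspb6 is well known, were 83.9 and 46.8 at 6 months, 74.1 and 88.7 at 18 months and 62.6 and 105 at 21 months, which overlapped. Per 1000 astrocyte marker UMIs Hspb6 was 1.98 and 1.56 at 6 months, 1.81 and 1.31 at 18 months and 3.36 and 2.97 at 21 months. Per 1000 smooth muscle marker UMIs it was 90.2 and 133, 97.5 and 60.4, and 237 and 136. The old sections were highest on both scales, by little for old 2 on the second. Per 1000 microglia marker UMIs the groups overlapped, with Hspb6 at 6.94 and 5.10 at 6 months, 4.46 and 3.04 at 18 months and 7.12 and 5.71 at 21 months, so that old 2 lay below young 1. The part of these cells in the rise was not tested.

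The difference between the change of Hspb6 in white matter and in all other spots was 0.88 (SE 0.25, adjusted p = 0.229) and was not called, so a rise particular to white matter was not shown. All other spots together gave 0.11 (SE 0.11, adjusted p = 0.745). Among the named regions, the values between old and young were 0.38 in choroid plexus and ventricle, 0.37 in hypothalamus, 0.34 in thalamus, 0.24 in striatum, -0.14 in isocortex and -0.17 in the hippocampal formation, with adjusted p of 0.815 or more. In the meninges Hspb6 had 3 to 11 UMIs a section and was not tested.

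**Figure D3:**
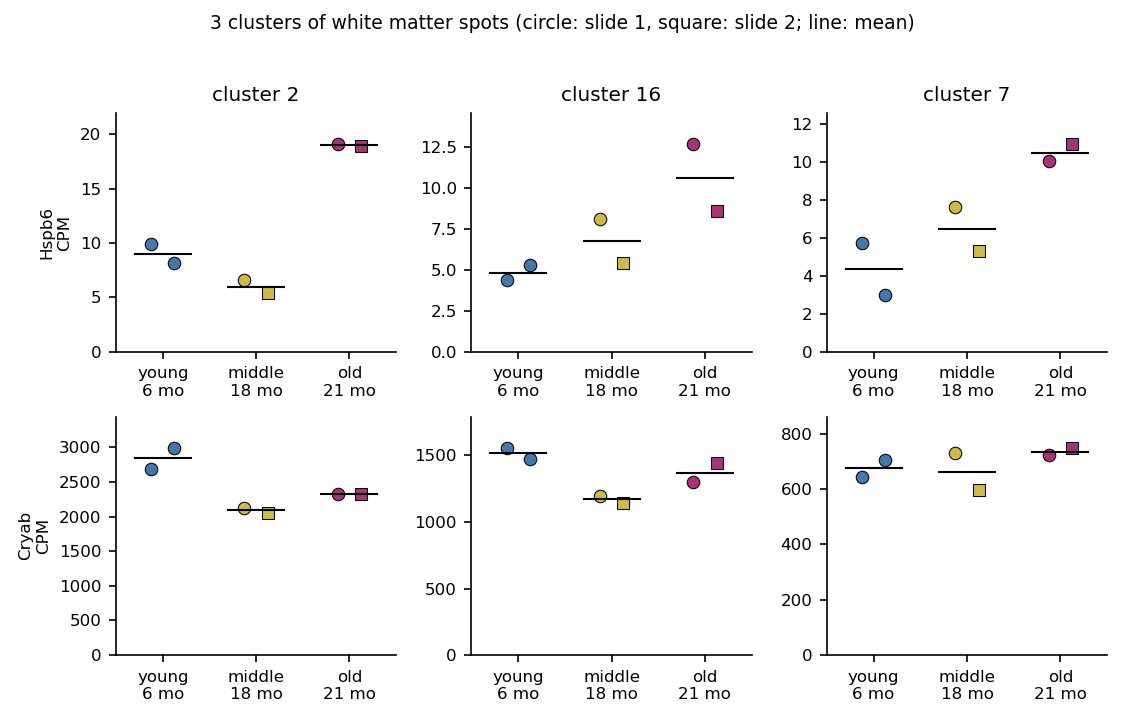
CPM of Hspb6 and Cryab in the 3 clusters of white matter spots, with 1 point per section, the mean of 2 as a line and the slide as the symbol. In cluster 2 Hspb6 is at 19.1 and 18.9 in the old sections, above all others, while Cryab is highest in the young (2689 and 2994).

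No change of Cryab was called over the whole section. It stood at 377 and 360 CPM at 6 months, 351 and 344 at 18 months and 347 and 413 at 21 months, so that the groups overlapped and old 2 was the highest. The fold change between old and young was -0.01 (SE 0.09, adjusted p = 0.987). In white matter it was 1780 and 2111 at 6 months, 1527 and 1332 at 18 months and 1600 and 1638 at 21 months. The young sections lay above the other 4, but neither middle (-0.49, SE 0.12, adjusted p = 0.128) nor old (-0.34, SE 0.12, adjusted p = 0.333) was called against young. The outcome was the same in 15 of 22 alternatives for middle against young and in 20 of 22 for old against young, and the others called the fall. For middle these were DESeq2 (adjusted p = 0.00229), no filter (0.00752), leaving out middle 1 (0.0472), resolution 0.5 of the clustering (0.0134), the tenth of spots richest in myelin markers (0.000216), the 120 richest spots of each section (0.0186) and white matter without the cluster that Agt and Sparc also lead (0.0165). For old they were the tenth of spots (0.0241) and the 120 spots (0.0488). The difference from the change in all other spots between old and young was -0.36 (adjusted p = 0.689) and likewise stayed uncalled in 16 of 22 alternatives, with adjusted p as low as 2.87e-05 in the others.

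Within cluster 2 of white matter the fall of Cryab from young to middle was called (-0.48, SE 0.11, adjusted p = 0.00854), from 2689 and 2994 to 2126 and 2054 CPM. Hspb1 was also called there (-0.99, SE 0.18, adjusted p = 0.00174), 2 of 4 members against 3.19% of all genes tested. The old sections, at 2330 and 2332, were not called against young (-0.34, adjusted p = 0.0870). The summed oligodendrocyte markers of white matter were 34795 and 39739 CPM at 6 months, 33553 and 27114 at 18 months and 33441 and 32284 at 21 months. Per 1000 of these marker UMIs Cryab was 51.2 and 53.1 at 6 months, 45.5 and 49.1 at 18 months and 47.9 and 50.7 at 21 months. The young were the highest on this scale too, but young 1 only by little above old 2. The part of these cells in the change of Cryab was not tested.

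Outside white matter no change of Cryab was called. Of its values between old and young in the other 7 regions the farthest from 0 was -0.23 in choroid plexus and ventricle (SE 0.23), and the others ran from -0.10 in hypothalamus to 0.18 in meninges, with adjusted p of 0.640 or more. In striatum the old sections (352 and 349 CPM) lay above the middle (324 and 300) and the young (288 and 317), at a log2 value of 0.15 (SE 0.09, adjusted p = 0.640).

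Hspb8 was called in no comparison. Over the whole section it was 10.3 and 10.3 CPM at 6 months, 9.14 and 10.3 at 18 months and 10.5 and 11.3 at 21 months, a difference between old and young of 0.03 (SE 0.08, adjusted p = 0.929). In white matter the groups overlapped, with 22.5 and 19.8, 19.2 and 17.5, and 18.3 and 26.3, and the value between old and young was 0.00 (SE 0.17).

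The regions gave Hspb8 values on both sides of 0. In striatum it was 5.53 and 4.65 CPM at 6 months, 7.99 and 8.81 at 18 months and 9.71 and 11.3 at 21 months, from 17 to 54 UMIs. The groups were in order of age without overlap, but the change was not called (0.95, SE 0.27, adjusted p = 0.334). Summed smooth muscle markers in striatum had the same order, at 46.0 and 32.8 CPM, 61.6 and 72.3, and 76.0 and 78.1. Per 1000 of these marker UMIs Hspb8 overlapped between the groups, at 120 and 142 at 6 months, 130 and 122 at 18 months and 128 and 145 at 21 months, and the part of these cells was not tested. In the meninges it was 77.9 and 83.6 at 6 months, 48.8 and 72.7 at 18 months and 61.4 and 52.1 at 21 months, with both young highest (-0.50, SE 0.23, adjusted p = 0.690 between old and young). In choroid plexus and ventricle the same order held, with 73.8 and 85.8 in the young and 53.1 to 72.8 in the others (-0.31, SE 0.20, adjusted p = 0.891).

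**Figure D4:**
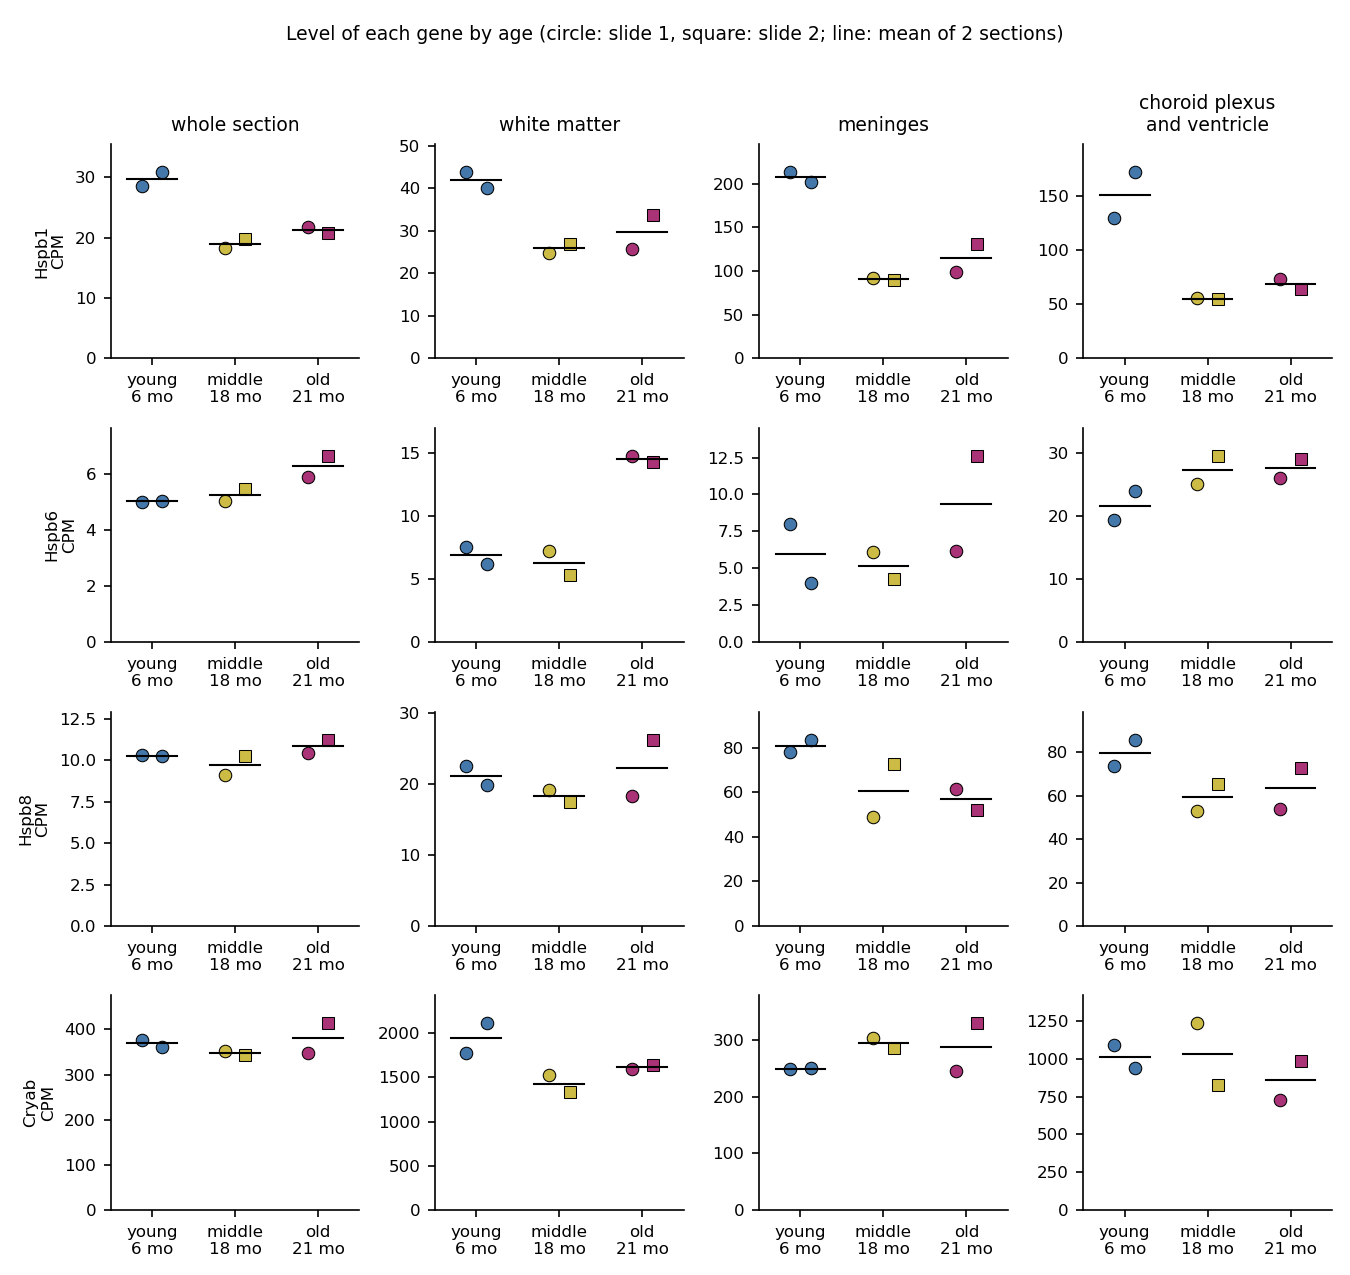
CPM of the 4 genes (rows) in whole sections and 3 regions (columns) by age, with 1 point per section, the mean of 2 as a line and the slide as the symbol. Hspb1 is highest in the young in all 4 columns (214 and 202 in meninges), and Hspb6 in white matter is highest in the old (14.8 and 14.3).

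The share of spots with at least 1 UMI moves with depth, which was lower in the old sections, so spots were also thinned to 5000 UMIs, leaving out 180 shallower spots. Over whole sections Hspb1 was seen in a mean of 45.5% of spots in the young, 35.9% in the middle and 32.3% in the old as deposited, and in 13.1%, 9.04% and 10.5% after thinning. In thinned meningeal spots it was seen in 67.7% and 59.1% at 6 months, 34.8% and 33.3% at 18 months and 37.5% and 46.8% at 21 months, so the young stayed highest. Hspb6 in thinned white matter spots was seen in 5.27% and 2.38% at 6 months, 3.46% and 2.53% at 18 months and 6.15% and 8.33% at 21 months. Old 1 was thus close to young 1 on this measure.

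Members of the wider heat shock response were set beside the 4 genes. Of 25 listed chaperones and co-chaperones, all tested in whole sections, 4 were called lower and 0 higher between old and young, beside 0.0736% of all genes called lower and 0.0905% called higher, and the median log2 fold change was -0.12 against 0.00 over all genes. The 4 were the inducible Hsp70 genes Hspa1b (-1.86, adjusted p = 0.00376) and Hspa1a (-1.74, adjusted p = 0.000491), the Hsp40 gene Dnajb1 (-0.74, adjusted p = 0.0365) and the Hsp110 gene Hsph1 (-0.38, adjusted p = 0.0480). Hspa1a and Hspa1b are near-identical copies, so reads may be split between them. Dnaja1, another Hsp40, gave -0.26 (adjusted p = 0.157) and Chordc1, a partner of Hsp90, -0.26 (adjusted p = 0.120).

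The level of Hspa1a was 53.7 and 56.6 CPM at 6 months, 16.1 and 17.4 at 18 months and 18.6 and 15.6 at 21 months. The young stood apart, as they did for Hspb1, and middle and old overlapped, whereas for Hspb1 both old sections lay above both middle ones. The log2 fold change between old and young was -1.74 for Hspa1a and -0.54 for Hspb1. In the meninges the values between middle and young were -3.47 for Hspa1a and -1.21 for Hspb1. In the choroid plexus and ventricle spots they were -2.90 and -1.44. The lowest value among the 25 listed genes was -3.32 in white matter, -3.22 in thalamus and -2.73 in striatum. Hspb1 changed there by -0.76, -0.59 and -0.31, and the median of the 25 genes was -0.17, -0.09 and -0.13. In hypothalamus, isocortex and the hippocampal formation the lowest was -1.77, -1.11 and -1.02, beside -0.71, -0.40 and -0.83 for Hspb1. The median of the 25 genes in these was -0.12, -0.09 and -0.15. These comparisons share the young sections.

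Of the 7 other genes of the small heat shock family (Hspb2, Hspb3, Hspb7, Hspb9, Odf1, Hspb11 and the lens crystallin Cryaa), 5 passed the filter on low counts in whole sections. None was called by edgeR in any set of spots, beside 0% to 3.19% of all genes. At such shares a list this short would rarely hold a called gene. Hspb2, which overlaps Cryab, stood at 1.68 to 2.22 CPM and Hspb3 at 2.58 to 3.46, with log2 values between old and young of -0.09 each. Hspb7 was at 0.0645 to 0.377, with the highest value in old 2 (1.59, SE 0.72, adjusted p = 0.404). Hspb11, a ciliary transport subunit that is no true member by sequence, was at 24.4 to 26.4. Of 7 partners and regulators (Bag3, Hsf1, Hsf2, Sqstm1, Stub1, Des and Ywhag) none was called either, at the same shares of all genes. Their log2 values between old and young ran from -0.11 to 0.40 in whole sections and from -0.84 to 1.33 in meninges. Bag3, the partner of Hspb8, stood at 9.60 to 11.7 and its value was -0.06. The heat shock factors gave 0.06 for Hsf1 and -0.07 for Hsf2, and the autophagy receptor Sqstm1 gave 0.16 (SE 0.07, adjusted p = 0.392).

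**Figure D5:**
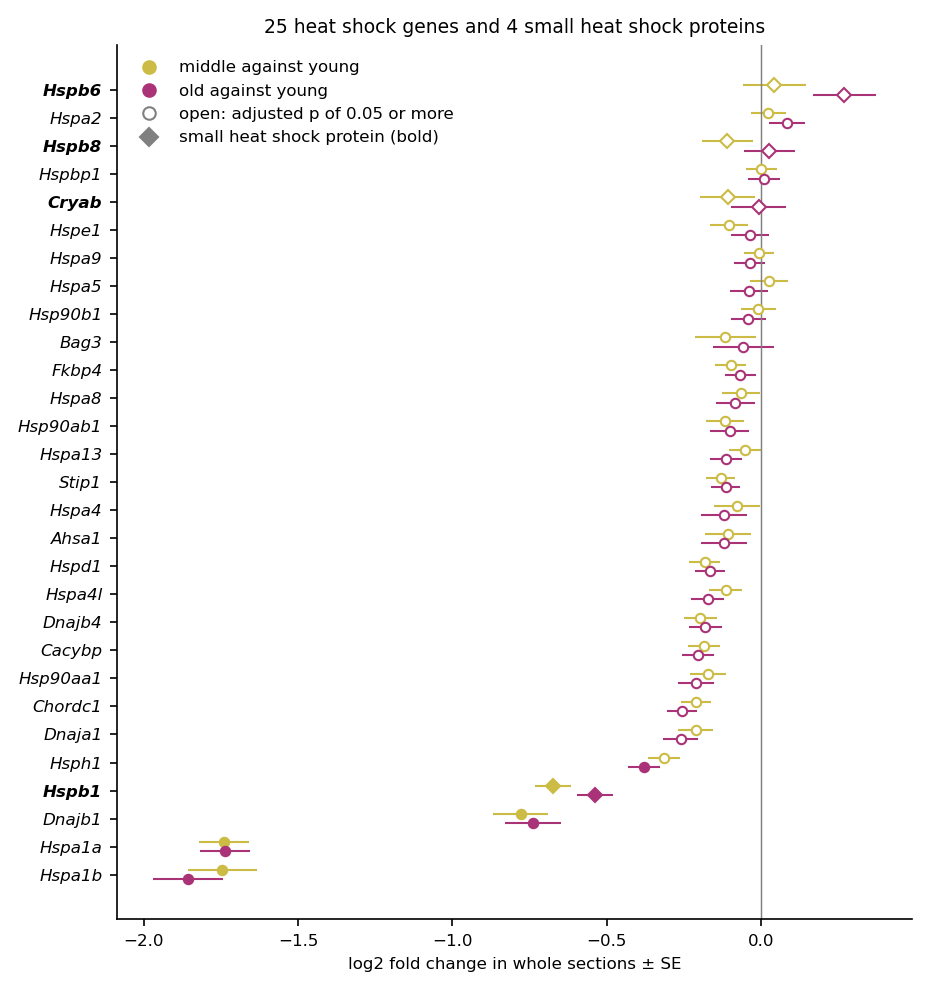
Log2 fold change against young with its SE (edgeR) in whole sections for 25 heat shock genes (circles) and the 4 small heat shock proteins (diamonds, bold), for middle (yellow) and old (purple), ordered by the value for old. Filled points are called. Hspa1b (-1.86) and Hspa1a (-1.74) are lowest, then Dnajb1 (-0.74) and Hspb1 (-0.54), and Hspb6 (0.27) is at the top.

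Over the 48 sums of 8 regions in 6 sections, the genes with the most similar pattern were found among 9860 genes by Pearson's correlation of log2 levels. The sums share sections and region makeup, so the values describe likeness only. Hspb1 was most like Serpinh1, a chaperone of collagen (0.93), Cdc42ep4 (0.92) and the transporter Slco1a4 (0.92). Hspb8 was most like Aebp1 (0.97), Btd (0.96) and the matrix protein Tgfbi (0.96). Cryab was most like Car2, a carbonic anhydrase of oligodendrocytes (0.98), Pllp, a myelin membrane protein (0.98), and Efcab14 (0.98), and Hspb6 most like Mrps6, Fbxo36 and Spata24 (each 0.90). Among the members themselves Hspb1 and Hspb8 were closest (0.84), then Hspb6 and Hspb8 (0.72), and Hspb1 and Cryab least alike (0.43).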

How the data were processed

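The deposited tables hold whole-number counts of UMIs per gene and spot, which the file headers credit to Space Ranger 1.3.1 (run by the authors) and the submitters' processing notes to the genome mm10. Only spots over tissue were listed, and 2 spots under 500 UMIs were dropped. Sections shared 1919 of 3389 spot barcodes, which are a fixed set on this array. Groups and slides were taken from the labels.

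Spots were clustered (Leiden resolution 0.8, 30 principal components, 2000 variable genes, 20 neighbours, leidenalg 0.10.2, scikit-learn 1.9.0, NumPy 2.4.6) without the 4 genes, the other chaperone lists and the glial and immune genes. A cluster took a region's name when its 50 leading genes, and the first 10 of them, each held at least 3 of that region's markers. Among the 50 these had to be at least 2 times as many as those of the next region. Among the first 10 no other region could hold more. A region was tested with at least 20 spots in every section. No doublet caller was run, since a spot is no single cell.

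UMIs were summed per section and region and tested with edgeR 4.0.16 in R 4.3.3 (TMM factors, filterByExpr, robust glmQLFit, glmQLFTest, two-sided), with the 3 groups in 1 fit and 3 residual degrees of freedom, and Benjamini-Hochberg adjustment over all genes. The scripts were tested on simulated data. Alternatives were DESeq2 1.42.0, limma 3.58.1, slide and replicate blocks, other filters, thinning, other clusterings and leaving out each section; the newer quasi-dispersion of edgeR, sections without meninges and choroid plexus spots, and fits of parts of the white matter were added after the data were seen. The 4 genes are named always, with the 7 others of the family, 7 partners and up to 6 of 25 heat shock genes by size of change between old and young, plus the 3 genes most like each member among those with a mean of at least 10 CPM (log2 of CPM + 1). The members and lists were chosen with earlier results of these data known. Of the 32285 gene identifiers 32158 matched GENCODE M21, and RefSeq's promoter table held 3 of the 4 members.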

Additional observations from a re-analysis of the deposited data

Results flagged for a closer look

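Some changes pointed one way in every section of one region and the opposite way in every section of another. These are log2 values that were not called, and the difference between regions was not tested. They were picked from all members, regions and comparisons. With 2 sections a group such separation arises easily without any change, and the share of all genes that separate in this way was not counted.

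Hspb8 differed in this way between striatum and several other regions. Between old and young it was 0.95 in striatum, against -0.31 in choroid plexus and ventricle, -0.50 in meninges and -0.53 in thalamus. In striatum the summed smooth muscle markers stood in the same order of age, with means of 39.4 CPM in the young, 66.9 in the middle and 77.1 in the old, and Hspb8 per 1000 of these marker UMIs overlapped between the groups. Between middle and young it was 0.69 in striatum, against -0.41 in choroid plexus and ventricle, -0.41 in meninges, -0.32 in thalamus and -0.27 in white matter. Between old and middle it was 0.26 in striatum and -0.21 in thalamus.

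Hspb6 was higher in middle than young sections in choroid plexus and ventricle (0.36), hypothalamus (0.45) and thalamus (0.30), and lower in the hippocampal formation (-0.80), where it rested on 4 to 19 UMIs a section.

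Cryab lay at 0.15 in striatum and -0.34 in white matter between old and young. Between middle and young it lay at 0.22 in meninges and 0.0535 in thalamus, against -0.49 in white matter.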

How the results depend on the processing

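The design has 2 sections a group, all young sections lie on slide 1, and Hspb6 rests on few UMIs, so single calls moved easily. Of 109 member changes 7 were called, in comparisons that called 0% to 0.92% of all genes. This count leaves out the separate fits of all spots outside white matter and of the single white matter clusters. Further calls were made there: Hspb1 outside white matter, and Hspb1, Cryab and Hspb6 in cluster 2. Over 2039 values under alternatives none reversed a call, 33 lost it and 35 gained one, 120 uncalled values turned sign, and 10 had no adjusted p from DESeq2. Of 203 counts of genes or members, 79 differed by over 1.5 times. The rise of Hspb6 in white matter between old and young kept its direction in every alternative and its call in 11 of 22. The cause of each shift below was not tested.

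In whole sections the 29 genes called between old and young became 194 with DESeq2, 113 without a filter, 7 in a fit of the 2 groups alone, 7 with slide as a block and 6 to 75 with a section left out. The 12 between middle and young became 70 with DESeq2, 58 without a filter, 6 at a minimum of 10 UMIs, 3 with slide as a block, 6 after thinning, 6 without mitochondrial and haemoglobin genes, 29 with equal numbers of spots of each region, 7 without meninges and choroid plexus spots (an alternative chosen after seeing the data) and 1 to 33 with a section left out. The 0 between old and middle became 1 with equal numbers of spots and 0 to 1 with a section left out.

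In white matter the 126 genes called between old and young became 83 with DESeq2, 343 without a filter, 59 with slide as a block, 289 at resolution 0.5, 409 in the tenth of spots richest in myelin markers, 232 in the 120 richest spots of each section, 227 without the cluster that Agt and Sparc also lead (also chosen after seeing the data) and 43 to 138 with a section left out. In the same settings the 30 between middle and young became 46 with DESeq2, 288 without a filter, 362, 1447, 228 and 305 under the 4 other definitions of white matter, and 6 to 113. The 2 between old and middle became 7 with DESeq2, 61 without a filter, 12 in the 2 groups alone, 6 with slide as a block, 24, 168, 33 and 12 under those definitions, and 1 to 30. The 30 genes called for a different change in white matter became 160 without a filter, 3 with limma, 207, 406, 305 and 202 under those definitions, and 22 to 58.

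Over the other regions the 1 called pair of member and region between old and young became 0 with DESeq2, 4 without a filter, 2 in the 2 groups alone, 2 after thinning, 0 at resolution 0.5, where no cluster was named meninges, and 0 to 2 with a section left out. The 2 pairs between middle and young became 5 without a filter, 1 with slide as a block, 1 at resolution 0.5 and 1 with genes scaled before clustering, the last 2 again without meninges, and stayed 2 with a section left out. The region of highest level was kept by 3 of the 4 members in those 2 clusterings.

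The main fits did not pair the sections by replicate number. For each pair of groups, the deviations of same-numbered sections from their group means were correlated over genes. These correlations were -0.0004 for young and middle, 0.28 for young and old and 0.36 for middle and old. For middle and old the replicate number is also the slide, so those sections can be paired by slide, which only the blocked alternatives did. With the replicate block 7 genes were called in white matter between old and middle, beside 2 in the main fit. With the same block limma called 0 genes for a different change in white matter.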
